A study of Drosophila melanogaster with 2 samples.

Results

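The weakest compact regions called from a GAF ChIP on the Drosophila autosomes were examined in untreated S2 cells. These regions are under 2000 bp in length and have fewer than 50 overlapping ChIP tags at their summit, and they lie on chromosome arms 2L, 2R, 3L and 3R. Of 4604 enriched regions in the list, 3366 lay on these arms, and 737 of those (21.9%) met both limits. The members were therefore chosen by their length and their summit height, so that values built on summit height describe the selection and are given without a test. The other compact autosomal regions comprised 1531 with moderate summits (at least 50 but under 400 tags) and 481 with strong summits of 400 tags or more, and 617 regions were 2000 bp or wider.

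GAGA factor (GAF), the product of the Trithorax-like (Trl) gene, is a zinc-finger protein that recognizes GAGA repeats in DNA. It is known for binding the promoters of heat shock genes and of many genes with paused RNA polymerase II, and for working with nucleosome remodelers to keep chromatin accessible. Through its BTB/POZ domain it forms oligomers, which bind best where several such repeats lie together.

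The study immunoprecipitated GAF with an anti-GAF antibody from S2-DRSC cells, an established Drosophila cell line (lot 181A1), which were left untreated or were given GAF dsRNA over 5 days to deplete the factor (GAF-RNAi). The list of regions comes from the untreated cells, which the notes deposited with it call mock-RNAi. The replicates were merged before region calling, with merged pre-immune IPs as the control. The list holds a single merged value per region, and neither a replicate error nor a comparison over samples was computed from it. The GAF-RNAi sample was not analysed here. The combined ChIP held 6645644 tags and the control IP 5181809 tags after the limit on duplicate tags.

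The regions with weak summits were numerous but held little of the recovered DNA. They made up 21.9% of the autosomal regions and 12.5% of the bases in them, but 2.499% of their tags (61401 of 2457394). A member had a median of 75 tags (from 27 to 304) in a median length of 753 bp (from 258 to 1960 bp). Its tag density had a median of 99.1 tags per kb, with quartiles of 87.7 and 111.4. The moderate regions had a median of 216.5 tags per kb, and the strong regions of 811.8.

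The number of overlapping tags at the summit ran from 17 to 49, with a median of 35 and quartiles of 29 and 42. Only 8 members had a summit under 20 tags, whereas each bin of 5 tags from 25 upward held between 127 and 139 members. The limit of 50 tags therefore did not fall at a gap in the distribution. The 25 members with a summit of exactly 49 tags had a median of 99 tags in the region and a median FDR of 24.4%. The 16 compact regions with a summit of 50 tags, just outside the limit, had a median of 93.5 tags and a median FDR of 15.4%. A further 9 autosomal regions had a summit under 50 tags but were excluded by their length, from 2043 to 3174 bp, with median summit height of 46 tags and a median of 267 tags.

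**Figure D1:**
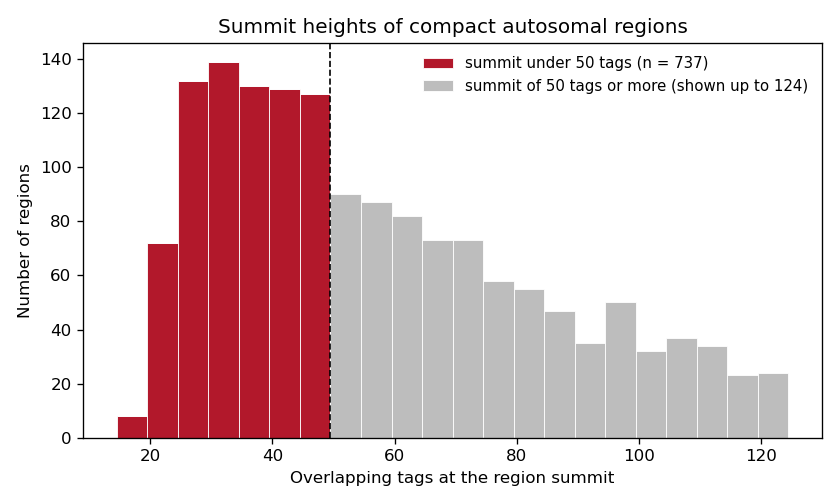
Histogram of compact autosomal regions (y axis, number of regions) by the overlapping tags at their summit (x axis, bins of 5 tags), with the 737 regions under 50 tags in red and the higher ones up to 124 tags in grey. The counts pass the limit of 50 tags (dashed line) with no gap in the heights, and bins from 25 to 49 tags hold between 127 and 139 regions each.

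Enrichment at the summit is given in the list as a fold over the local expectation from the control IP, which is set to at least the genome-wide level of 5.88 tags. The fold enrichment of the members had a median of 4.82 (from 2.64 to 8.33, quartiles 4.08 and 5.86), against 14.52 for moderate and 75.95 for strong regions. Since the summit heights end at 49 tags and the expectation starts at 5.88, no member could exceed 8.33. That ceiling was reached by 3 members, the first of them at chr2L:12066494-12067217, with 60 tags in 724 bp. The second, at chr2R:2307208-2307556, held 50 tags in 349 bp. The third, at chr3R:16091137-16092288, held 123 tags in 1152 bp. On 3L the largest fold enrichment was 8.18, at chr3L:11189770-11190802, with 104 tags in 1033 bp.

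These 3 regions at the ceiling shared a summit of 49 tags and a fold enrichment of 8.33 but differed in the rest of the region. The listed FDR, the empirical false discovery rate obtained by exchanging ChIP and control, was 67.7% for the region on 2L, 19.46% on 2R and 9.46% on 3R. Their tags exceeded the control expectation for the whole region by 2.06, 3.56 and 2.65 times, respectively. The region on 2L was 724 bp long and held 60 tags, and the one on 2R held 50 tags in 349 bp. On 2L the 2 individual peaks, into which the Subpeaks tool had split the region, had heights of 49 and 7 tags.

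The median fold enrichment rose with summit height, from 3.67 at 20 to 24 tags to 6.45 at 45 to 49 tags, but the 3 lowest values were not at the lowest summits. At chr3R:5711267-5712286 the fold enrichment was 2.64, from a summit of 23 tags over an expected 8.71. At chr3R:21819790-21821008 it was 2.66, from 30 tags over an expected 11.3, and at chr3L:1536156-1537063 it was 2.76, from 26 tags over an expected 9.42. The lowest summit of the set, chosen after its value was seen, had 17 tags over an expected 5.88 at chr3L:5739496-5740238, a fold enrichment of 2.89.

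Counted over the whole region, the members held a median of 2.02 times the tags expected from the control (from 1.41 to 3.56, quartiles 1.81 and 2.33). In tags, the median was 75 observed and 36.2 expected. The corresponding ratio was 4.10 for moderate and 15.54 for strong regions. On this measure the bins with the highest and the lower summits had medians of 2.24 at 45 to 49 tags and 1.91 at 20 to 24 tags. Across the 737 members, summit height and region tags had a Spearman's rho of 0.483, a description only, since the summit tags are among the region tags. The summit exceeded the mean depth of the region 2.37 times in the median member, against 3.57 times in moderate and 4.86 times in strong regions. The weak regions thus had a flatter profile, a measure that contains the summit height by which they were chosen. The summit lay between 33.3% and 66.7% of the region's length in 563 of 737 members (76.4%, 95% Wilson interval 73.2 to 79.3%). All intervals given here cover counting error only.

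**Figure D2:**
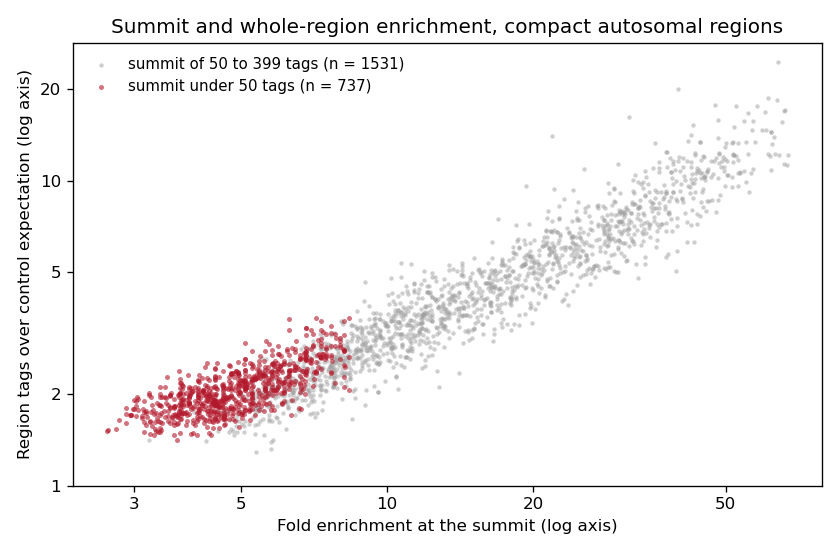
Fold enrichment at the summit (x axis, log scale) against the tags of the region over the control expectation (y axis, log scale), with 1 point per compact autosomal region, red for the 737 weak and grey for the 1531 moderate regions. The red points end at a fold of 8.33 and have a median of 2.02 on the y axis. Both sets lie along a single band, but both axes divide by the same control expectation.

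The listed p-value of a region was close to that of a Poisson count of its tags. The Poisson probability of more tags than observed, computed from the region's expectation, came within 5% of the listed value on the scale of 10 times -log10 for 669 of 737 members (90.8%). The probability of at least as many tags did so for 548 (74.4%). The expectation was itself computed from the listed fold enrichment, so that the computed and listed values are not independent. On that scale the members ran from 40.09 to 434.62 with a median of 74.5, and the moderate regions had a median of 615.0. The region with the most tags shows the difference between both measures. At chr3R:19151098-19153057, 304 tags were found in 1960 bp against an expected 147.7. Its listed FDR was 4.64%, although its fold enrichment at the summit was only 4.18, with 46 tags over an expected 11. The next in tags, chr3L:1651966-1653859 with 200 tags and chr3R:5354098-5355792 with 198 tags, had FDRs of 34.0% and 57.7%.

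Few of the weak regions passed a stringent FDR. An FDR at or below 5% was listed for 8 of 737 members (1.09%, 95% Wilson interval 0.551 to 2.13%), where 65.4% of all 3366 autosomal regions had one. No member had an FDR at or below 1% (0 of 737, interval up to 0.519%), and 55 (7.46%) were at or below 10%. Among moderate regions these shares were 53.8% and 82.8%. An FDR above 50% was listed for 409 members (55.5%, interval 51.9 to 59.1%), where 13.8% of all autosomal regions had one. At 100% were 203 members (27.5%), against 0.914% of moderate regions. All these contrasts come from the same tags that chose the members and are not evidence about them. Within the set the median FDR fell from 100% at summits of 20 to 24 tags to 63.6% at 30 to 34 tags and to 26.0% at 45 to 49 tags.

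The 8 regions at or below 5%, listed here after their values were seen, were long or dense for their summit height. The smallest FDR, 1.7%, was at chr2R:2025677-2026916, where 177 tags were found against an expected 49.96 in 1240 bp, with a summit of 42 tags. At chr3R:4856839-4858181 the FDR was 3.4%, and 175 tags were found against an expected 60.3. At chr2R:20888862-20890127 the FDR was 3.44%, with 159 tags against an expected 51.0. At chr3L:4231215-4232732 it was 3.85%, with 176 tags against an expected 61.2. These 4 regions were between 1240 and 1518 bp long, above the 931 bp of the upper quartile. Of the remaining 4, those at chr3L:18039337-18040594 and chr3R:19151098-19153057 were 1258 and 1960 bp long. The regions at chr2R:6489124-6490053 and chr2R:3630288-3630995 were shorter, 930 and 708 bp, and had 3.46 and 3.48 times the expected tags.

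**Figure D3:**
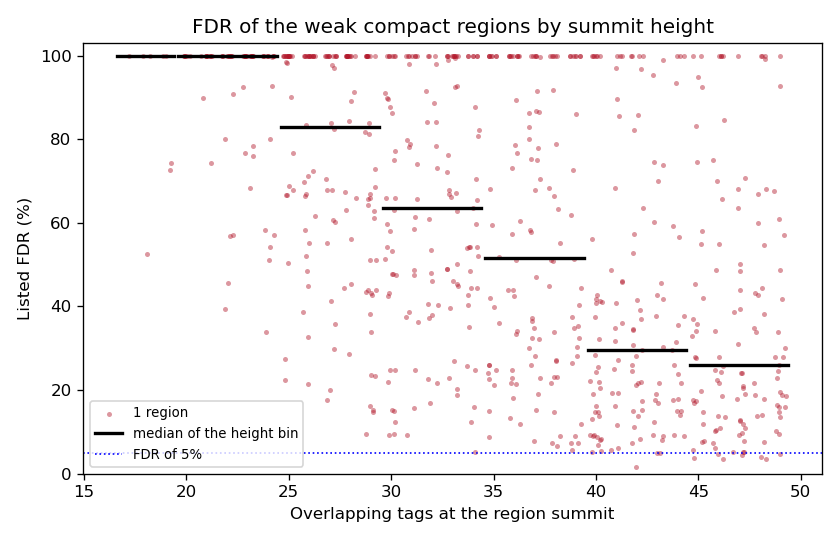
Listed FDR in percent (y axis) against the overlapping tags at the summit (x axis, spread slightly sideways to separate points), with 1 point per weak compact region (n = 737) and black bars at the median of each bin of heights. The medians fall from 100% at 20 to 24 tags to 26.0% at 45 to 49 tags, and 8 points lie at or below 5% (dotted line).

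Most weak regions were split into more than 1 individual peak. The 737 members held 1608 of the 12582 individual peaks, with 1 individual peak in 208 members (28.2%, 95% Wilson interval 25.1 to 31.6%), 2 in 288, 3 in 168 and 4 to 6 in the other 73. The moderate regions had 1 individual peak in 318 of 1531 (20.8%, interval 18.8 to 22.9%). The individual peaks of the members had a median height of 23 tags, and 629 of them (39.1%) had under 20 tags.

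In the 529 members with at least 2 individual peaks the second height had a median of 17 tags, a ratio to the highest of 0.537 (quartiles 0.313 and 0.743). The second peak of moderate regions also had a median of 17 tags, but the ratio to the highest was 0.152 there. The second height reached 75% of the highest in 131 of the 529 members (24.8%, interval 21.3 to 28.6%) and stayed under 25% in 82 (15.5%). The ratio contains the main summit by which the members were chosen. The median second height in tags was equal in both sets, but its upper quartile was 23 tags in members and 30 tags in moderate regions. The second height is not free of the limit on the summit either.

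Splitting went along with length. Members with 1 individual peak had a median length of 641.5 bp, 61.5 tags and an FDR of 74.2%, and the 49 members with 4 individual peaks had medians of 1339 bp, 142 tags and 28.5%. Their median summits were close, 34 and 37 tags. Of the 4 members with 6 individual peaks, the 3 with the most tags are given in full. At chr3R:19607225-19608827 the heights in order of position were 5, 44, 16, 7, 13 and 47 tags, so that both high peaks were separated by 3 lower ones. At chr3R:12031719-12033378 they were 7, 13, 36, 23, 43 and 11 tags. At chr2L:5973620-5975064 they were 16, 17, 29, 42, 14 and 18 tags, with 1 peak well above the others. In 34 of 737 members (4.61%) the highest individual peak exceeded the height of the region's own summit, and in 4 it reached 50 tags or more. The region at chr3R:16091137-16092288 was among these, with an individual peak of 54 tags and a region summit of 49 tags, so that its place under the limit depends on which of both heights is used.

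The control expectation was often at its floor under the weak regions. That floor is a minimum computed from the number of ChIP tags, not a measured level of the control IP. The expectation at the summit equalled the genome-wide level of 5.88 tags in 212 of 737 members (28.8%, 95% Wilson interval 25.6 to 32.1%), and in the others it reached up to 12.5 tags. Among moderate regions it was at that level in 232 of 1531 (15.2%, interval 13.4 to 17.04%), and among strong regions in 81 of 481 (16.8%, interval 13.8 to 20.4%). The height that chose the members is the numerator of the fold from which the expectation was computed, and the part of region calling in this share was not tested. The 212 members at the floor had a median summit of 31.5 tags, 63 tags per region and a fold enrichment of 5.36. The 525 members above it had medians of 37 tags, 80 tags and 4.62.

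This share varied among the chromosome arms. It was 44.5% on 3L (102 of 229 members, 95% Wilson interval 38.3 to 51.0%), 25.7% on 2L (38 of 148, interval 19.3 to 33.3%), 23.4% on 3R (43 of 184, interval 17.8 to 29.99%) and 16.5% on 2R (29 of 176, interval 11.7 to 22.7%). Moderate regions had the same highest and lowest arm, with 30.4% on 3L and 7.58% on 2R. On each of the 4 arms the share was higher among the weak than among the moderate regions. No test was made of this difference, nor of the part that region calling has in it. Arm 3L also had the lowest median summit of the members, 33 tags, against 34 on 2L, 36.5 on 2R and 37 on 3R. Of all regions on 3L, 25.3% (229 of 905, interval 22.6 to 28.2%) were compact and weak, and on the other arms 19.4% to 22.2%. Whether the low control expectation on 3L has a part in these numbers was not tested.

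**Figure D4:**
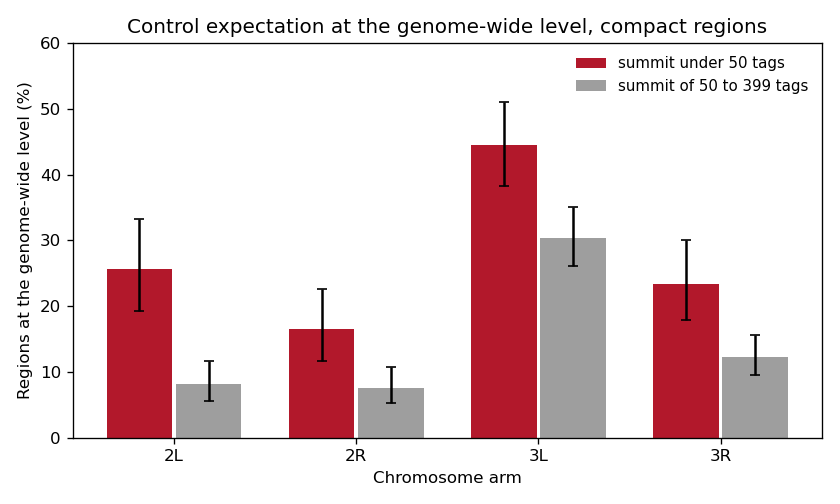
Share of regions in percent (y axis) whose control expectation at the summit was at the genome-wide level of 5.88 tags, by chromosome arm (x axis), with red bars for weak and grey bars for moderate compact regions and error bars for 95% Wilson intervals. Arm 3L has the highest share in both sets, 44.5% and 30.4%, and the red bar exceeds the grey one on all 4 arms.

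The distance of the weak regions to the nearest much stronger one covered a wide range. As strong summits, all 939 autosomal regions with 400 tags or more were taken, 481 of them compact and 458 of 2000 bp or wider. The distance from a member's summit to the nearest strong summit had a median of 18258 bp (95% interval 15847 to 22206 bp), with quartiles of 5769 and 48813 bp and a range from 517 to 1559951 bp. For moderate regions the median was 26255 bp (interval 24035 to 28959 bp). A strong summit lay within 10 kb of 264 of 737 members (35.8%, 95% Wilson interval 32.4 to 39.4%) and of 451 of 1531 moderate regions (29.5%, interval 27.2 to 31.8%). Among broad regions the share was 36.9% (228 of 617, interval 33.2 to 40.8%) and the median distance 16461 bp, so that a share of this size is not particular to the weak regions. Within 2 kb the numbers were 59 members (8.01%, interval 6.26 to 10.2%) and 57 moderate regions (3.72%, interval 2.89 to 4.79%). Beyond 100 kb the shares were close, 13.0% of members and 13.6% of moderate regions. No test was made between both sets, since regions of a single pooled list are not replicates.

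The share within 10 kb was higher among weak than among moderate regions on all 4 arms, but the size of the difference varied. On 2L it was 43.9% (65 of 148, interval 36.2 to 52.0%) against 28.8% (92 of 319, interval 24.1 to 34.0%). On 2R it was 35.2% against 30.3%, on 3L 32.8% against 28.4% and on 3R 33.7% against 30.1%, with overlapping intervals on these 3 arms. Measured between the edges of regions instead, the shares within 10 kb were 39.2% of members (interval 35.8 to 42.8%) and 31.9% of moderate regions (interval 29.6 to 34.3%). The edges of 88 members (11.9%) lay within 1 kb of the edge of a strong region. Among moderate regions this held for 113 of 1531 (7.38%). The 264 members within 10 kb shared 202 strong regions as their nearest, so that they are not independent of each other. For 142 of the 264 (53.8%, interval 47.8 to 59.7%) that strong region was 2000 bp or wider, where 458 of all 939 strong regions were. The nearest autosomal region of any class was also found between edges. Its class was close to the make-up of the list for broad and compact strong regions, but less so for weak and moderate ones. It was a moderate one for 306 members (41.5%, where 1531 of 3366 regions were moderate), another weak one for 198 (26.9%, where 737 were weak), a broad one for 131 (17.8%, where 617 were broad) and a compact strong one for 102 (13.8%, where 481 were).

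**Figure D5:**
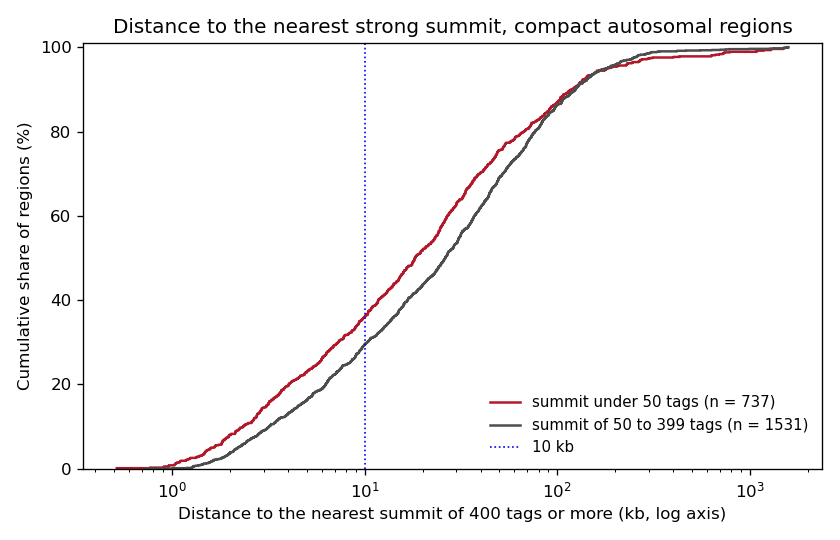
Cumulative share of regions in percent (y axis) by the distance from their summit to the nearest summit of 400 tags or more (x axis, kb, log scale), for weak (red, n = 737) and moderate (dark grey, n = 1531) compact autosomal regions. At 10 kb (dotted line) the red curve is at 35.8% and the grey at 29.5%, and beyond 100 kb both lie close together.

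The nearest pairs stood almost edge to edge. The summit at chr2L:15331840-15332384, with 49 tags, lay 517 bp from a summit of 672 tags in the region from 15332508 to 15334383, and 124 bp separated the edges of both. The summit at chr2L:4334428-4335232, with 42 tags, lay 768 bp from a summit of 544 tags, with 3 bp between the edges. The summit at chr2R:4032301-4032998, with 27 tags, lay 908 bp from a summit of 413 tags, with 12 bp between the edges. The listed FDRs of these 3 members were 60.8%, 41.4% and 100%, respectively. In each of them the strong neighbour had been called as a separate region. Whether tags from the flank of that neighbour fell within the weak region was not tested.

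Summit height, which the selection held under 50 tags, varied little with this distance. The selection itself limits how far these heights can differ. The median summit was 34 tags within 2 kb, 33 tags from 2 to 5 kb, 38 tags from 5 to 10 kb, 36 tags from 10 to 100 kb in both bins examined, and 35 tags beyond 100 kb. Across the 737 members Spearman's rho between distance and height was 0.053. From 2 kb outward the share of members with a listed FDR at or below 10% fell with distance, whereas within 2 kb it was lower than in the next bin. Of the 264 members within 10 kb, 31 (11.7%, 95% Wilson interval 8.40 to 16.2%) had an FDR at or below 10%, against 24 of 473 (5.07%, interval 3.43 to 7.44%) farther away. The share was 6.78% within 2 kb (4 of 59, interval 2.67 to 16.2%), 13.6% from 2 to 5 kb and 12.6% from 5 to 10 kb. It was 8.59% from 10 to 30 kb and 3.35% from 30 to 100 kb (6 of 179, interval 1.55 to 7.12%). Beyond 100 kb 1 of 96 members (1.04%, interval 0.184 to 5.67%) had such an FDR. An FDR above 50% was listed for 130 of the 264 near members (49.2%, interval 43.3 to 55.2%) and for 279 of the 473 others (59.0%, interval 54.5 to 63.3%). The FDR by distance was not computed for other classes. Whether these differences are particular to the members was therefore not tested.

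The control expectation moved with distance as well. It was at the genome-wide level in 98 of the 264 members within 10 kb (37.1%, interval 31.5 to 43.1%) and in 114 of the 473 others (24.1%, interval 20.5 to 28.2%). The lowest share was 19.0% between 30 and 100 kb (34 of 179 members), and it was 34.4% beyond 100 kb (33 of 96). Among moderate regions the share was 29.8% within 2 kb, 11.3% between 30 and 100 kb and 13.9% beyond 100 kb. The part of the control in the FDR by distance was not tested. Of the members within 10 kb, 201 of 264 (76.1%, interval 70.6 to 80.9%) had 2 or more individual peaks, against 328 of 473 (69.3%, interval 65.1 to 73.3%) of the others, with overlapping intervals. Among the latter, the 96 members beyond 100 kb had a share of 61.5% (interval 51.5 to 70.6%).

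The members farthest from any strong summit lay toward the ends of 3 arms. A strong summit was more than 500 kb away for 16 of 737 members (2.17%, 95% Wilson interval 1.34 to 3.50%) and for 12 of 1531 moderate regions (0.784%, interval 0.449 to 1.37%). The most distant was at chr2R:100620-100879, 1559951 bp from the first strong summit of that arm, with 37 tags at its summit and 37 tags in 260 bp. Another on 2R at chr2R:159122-159654 was 1501281 bp away and had a summit of 26 tags and an FDR of 100%. The third was at chr3L:24432894-24433354, 1491573 bp beyond the last strong summit of 3L, with a summit of 41 tags. All 3 had a control expectation at the genome-wide level and a single individual peak. In the dm3 build the low coordinates of 2R and the high coordinates of 3L are the ends next to the centromere. All 16 lay beyond the first or last strong summit of an arm, 3 on 2L, 4 on 2R and 9 on 3L.

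Past the last strong summit of 3L, at position 22941606, 11 of the 19 regions were compact and weak. Of these 11, 9 were at the floor of the control expectation. Before the first strong summit of 2R, at position 1660700, 5 of 14 regions were compact and weak. After the last, at position 20874454, 3 of 13 were. On 3L before the first strong summit, at position 131470, 4 of 5 regions were, and on 2L after the last, at position 22182456, 4 of 12. Over all autosomal regions the share was 21.9%. The first strong summit of 3R was already at position 22946, with no member before it. In order along the whole arms, ends included, 421 members stood alone between regions of other classes and 316 adjoined at least 1 other member. The longest stretches held 4 consecutive members. There were 10 such stretches, 1 of them before the first strong summit of 3L (chr3L:95355-119863, over 24509 bp) and another within 2L (chr2L:10985848-11040407, over 54560 bp).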

How the data were processed

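GAF ChIP-seq regions of untreated S2 cells were used. Per the labels, the submitters' processing notes name BWA and the dm3 build, with no roles given. The authors combined both replicates, called regions with MACS 1.4.0beta against a pre-immune IP (p-value cutoff of 1e-04, fragments of 146 bp) and split them with the Subpeaks tool. The series' own text gives non-specific IgG as the mock control instead, which would bear on every fold. The authors deposited whole-number tag counts per region, summit heights as a signal (overlapping tags), a fold enrichment (a ratio), p-values as 10 times -log10 and an FDR in percent, all without scaling between samples.

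Members have a length under 2000 bp and a summit under 50 tags on 2L, 2R, 3L and 3R. Control expectation is height over fold enrichment, and was taken as genome-wide where the fold differed from height over 5.88 by at most 0.01. Expected tags of a region are that expectation times length over 146 bp. Individual peaks were assigned by largest overlap (at least 1 bp), and distances run between summits unless edges are named. Shares have 95% Wilson intervals and medians 95% binomial order-statistic intervals. No test was run. Named regions are the 3 with the largest and smallest fold enrichment, most tags, most individual peaks, nearest and farthest strong summit, and the largest fold enrichment of each arm. The members, limits and named regions were chosen with earlier results of these data known. Alternatives were other limits on height, length, FDR and strong summits, other distances and a larger overlap. Functions were tested on simulated data. Python 3.11.15, numpy 2.4.6, pandas 2.3.3, scipy 1.17.1 and matplotlib 3.10.9 were used. No dm3 genome or annotation was used, so that sequences and genes were not analysed here.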

Additional observations from a re-analysis of the deposited data

How the results depend on the processing

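Of 37 alternatives over 7 results, 15 left the result within its 95% interval (for the count, within 1.5 times) and 22 moved it. The cause was not tested, and in some settings fewer regions enter by construction.

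With a summit limit of 40 tags, 481 members were left and 0% had an FDR at or below 5%. Their median fold enrichment was 4.40, and 33.5% had a control expectation at the genome-wide level. With a limit of 60 tags these values were 3.28%, 5.12 and 25.5%. With a length limit of 1000 bp, 0.340% had an FDR at or below 5% and 34.9% had 1 individual peak. With an FDR limit of 1% the share passing was 0%.

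Only 8 members had an FDR at or below 5%. Their median fold enrichment was 7.48, 50% were at the genome-wide control level, 12.5% had 1 individual peak, the median distance to a strong summit was 7280 bp and 62.5% had one within 10 kb.

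The median distance was 15012 bp with strong summits from 300 tags (40.6% of members within 10 kb) and 24638 bp from 500 tags (30.5%). With only strong regions under 2000 bp it was 42688 bp (18.7%). The number of strong regions differs between these settings by construction, and the part of their number or placement was not tested.

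No paired analysis was possible because the list used here holds a single merged value per region, and for the same reason no replicate was left out. The summits of members held 17 to 49 tags over an expectation of at least 5.88 tags, and the effect of depth was not tested.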
